A study of Mus musculus with 35 samples.

Results

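The genes described are 10 components of the general mRNA decay machinery, Xrn1, Xrn2, Dcp1a, Dcp2, Edc4, Lsm1, Cnot1, Cnot7, Dis3 and Exosc10. They were taken by name from the 24411 gene rows of the count tables, and each had 1 row. Long RNA had been sequenced from pachytene spermatocytes (Spc), round spermatids (RS) and isolated chromatoid bodies (CBs) of adult mice in which Smg6 was deleted in germ cells, and of controls. Smg6 encodes the endonuclease of nonsense-mediated RNA decay (NMD). Conditional knockout mice (cKO) carried Smg6(fx/fx) alleles with loxP sites around exon 9 and a Cre transgene under the Ngn3 promoter, which acts in spermatogonia, whereas control littermates (CTRL) carried Smg6(fx/fx) or Smg6(fx/wt) without Cre, all on a mixed C57Bl/6J and SV129 background. There were 3 CTRL and 3 cKO libraries of Spc, 3 and 3 of RS, and 4 CTRL and 3 cKO libraries of CBs. Cells were separated by size in a BSA gradient and their polyadenylated RNA was sequenced, while CBs, the RNA-rich granules of the RS cytoplasm, were captured from pooled testes of 2 to 4 mice with an antibody against DDX4 and their total RNA was sequenced. Since the protocols differed, CBs were compared by genotype but not with cells.

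Bulk degradation of a cytoplasmic mRNA usually begins with shortening of its poly(A) tail by the CCR4-NOT complex. The body is then destroyed from either end, by removal of the cap and digestion by a 5′ to 3′ exonuclease, or by the 3′ to 5′ exonucleases of the RNA exosome. The fragments that SMG6 leaves when it cuts an NMD target enter the same machinery, with XRN1 clearing the downstream piece and the exosome the upstream piece.

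XRN1 is the cytoplasmic and XRN2 the nuclear 5′ to 3′ exonuclease. DCP2 removes the cap, DCP1A activates it, EDC4 is the large scaffold that joins them, and LSM1 belongs to the LSM ring that binds oligoadenylated 3′ ends and promotes decapping. CNOT1 is the scaffold of CCR4-NOT, and CNOT7 is one of its catalytic deadenylases. DIS3 is a processive nuclease of the exosome, and EXOSC10 is a distributive nuclease of the nuclear exosome. In the GRCm38 annotation (GENCODE vM21) 4 of the 10 genes lie on chromosome 8. Edc4 spans chr8:105880881-105894908 and Lsm1 chr8:25785288-25803975 on the plus strand, and Cnot1 spans chr8:95719451-95807464 and Cnot7 chr8:40492540-40515847 on the minus strand. Dis3 lies at chr14:99075206-99099770 (minus strand), Dcp1a at chr14:30479535-30527063, Xrn1 at chr9:95954760-96057803, Xrn2 at chr2:147012996-147078000 and Exosc10 at chr4:148558429-148582401 (all plus strand), and Dcp2 lies on chromosome 18. Values are for the whole gene, as defined by the UCSC gene models that the labels name for the gene tables. Xrn1, Dcp1a, Cnot1, Cnot7, Dis3 and Exosc10 overlap genes of the opposite strand, and the counting was stranded. On their own strand, where strand does not separate reads, Edc4 overlaps Nrn1l, Xrn1 overlaps Gm38375, and Cnot1 overlaps Gm45762, Mir7073 and the snoRNA genes Gm26265 and Gm26493.

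Gene counts summed to between 36419197 and 47355837 per library in the 12 Spc and RS libraries and to between 2705277 and 12103906 in the 7 CB libraries. Per library the 10 genes had 594 to 62438 counts in Spc, 195 to 54500 in RS and 15 to 4963 in CBs. Counts were scaled with TMM within each comparison, given as counts per 1000000 (CPM), and tested with edgeR (quasi-likelihood, two-sided, p adjusted over all genes tested after Benjamini and Hochberg), and a gene was called at an adjusted p of at most 0.05. Smg6 itself did not pass in any fraction, with log2 fold changes of 0.22 in Spc, -0.01 in RS and -0.03 in CBs (adjusted p from 0.36 to 0.97). Its gene count includes all exons, so that it does not check the deletion of exon 9. Cell markers separated the fractions and the genotypes. A spermatocyte list summed to 0.105% to 0.132% of gene counts in Spc CTRL and 0.0427% to 0.0504% in RS CTRL, and a round spermatid list to 0.106% to 0.160% and 0.298% to 0.313%. All 9 genes of a late spermatid list fell in cKO in each fraction, in RS from 2.28% to 2.82% of gene counts in CTRL to 0.221% to 0.238% in cKO. All 8 round spermatid genes fell in RS, to between 0.145% and 0.164% in cKO, and 5 of 10 spermatocyte genes rose there and 2 fell. Of all genes tested, 14.1% fell in Spc, 34.3% in RS and 18.4% in CBs, and 38.4% rose in RS. All 12 macrophage genes rose in RS (28.8 to 43.6 CPM summed in CTRL, 374 to 649.8 in cKO). The part of these marker changes in the results below was not tested, and in bulk RNA fewer cells of a type and less RNA per cell cannot be told apart. Scaling by library size alone in place of TMM moved the median over all genes from 0.11 to 0.73 in RS, cKO against CTRL, from -0.08 to -0.54 in CTRL, RS against Spc, and from -0.13 to 0.58 for the interaction, so changes there are relative to the bulk of genes.

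The levels of the 10 mRNAs were compared per kb of exons annotated in GENCODE, with the 12 Spc and RS libraries scaled together. Cnot1 was highest in each of the 4 cell groups, at 56.2 ± 2.0 CPM per kb in Spc CTRL (mean ± SD, n = 3), 72.8 ± 3.2 in Spc cKO, 54.1 ± 1.3 in RS CTRL and 61.8 ± 1.1 in RS cKO. In Spc CTRL it was followed by Edc4 at 41.0 ± 4.7 and Exosc10 at 38.1 ± 2.5, whose ranges overlapped, and then by Xrn2 (18.2 ± 1.9), Cnot7 (15.8 ± 0.8), Dis3 (8.03 ± 1.76), Lsm1 (5.47 ± 0.57), Dcp1a (3.13 ± 0.22), Dcp2 (1.96 ± 0.17) and Xrn1 (1.03 ± 0.09), each without overlap with its neighbour. The decapping enzyme Dcp2 and the cytoplasmic exonuclease Xrn1 were thus at the bottom of the order. In RS CTRL the order was Cnot1, Exosc10 (38.3 ± 1.7), Xrn2 (37.2 ± 0.8), Dis3 (24.5 ± 0.8), Edc4 (10.9 ± 0.5), Cnot7 (10.1 ± 0.7), Dcp1a (3.34 ± 0.12), Lsm1 (2.94 ± 0.19), Xrn1 (1.18 ± 0.12) and Dcp2 (0.772 ± 0.050). There Exosc10 overlapped with Xrn2 and Edc4 with Cnot7. In RS cKO, Edc4 stood above Cnot7 at 25.2 ± 0.5 CPM per kb and Dis3 below it at 8.80 ± 0.73, and the ranges of Cnot1 and Exosc10 (58.8 ± 6.5) and those of Lsm1 (4.35 ± 0.49) and Dcp1a (3.61 ± 0.39) overlapped. In Spc cKO, Dis3 (6.00 ± 0.91) overlapped with Lsm1 (5.96 ± 0.45) and Cnot1 with Exosc10 (66.1 ± 7.2). In CTRL CBs, where the libraries were scaled among themselves, Edc4 led at 23.5 ± 3.2 CPM per kb (n = 4), before Exosc10 (18.3 ± 3.9), Cnot1 (15.2 ± 3.9) and Xrn2 (14.0 ± 1.3), and each of these overlapped with the next. Dcp2 was last in CTRL CBs at 1.22 ± 0.09 and in cKO CBs at 0.931 ± 0.148. Genes were counted on UCSC models, so the GENCODE lengths need not be those of the exons counted, and the levels are approximate. Exons of curated RefSeq transcripts of the same build, tried after the data were seen, were 2.05-fold shorter for Dis3, 1.93-fold for Cnot1, 1.84-fold for Cnot7 and 1.81-fold for Xrn1, and 1.01-fold for Dcp2. With these lengths Cnot1 stayed highest in the 4 cell groups, and Dcp2 and Xrn1 stayed the last pair there, but in Spc CTRL their ranges overlapped (1.97 and 1.86 CPM per kb) and in Spc cKO Dcp2 was last. Dis3 was then second in RS CTRL at 50.1 CPM per kb, Cnot7 was above Edc4 there and above Xrn2 in Spc CTRL, and Cnot1 led in CTRL CBs at 29.3, overlapping with Edc4 at 27.0.

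**Figure D1:**
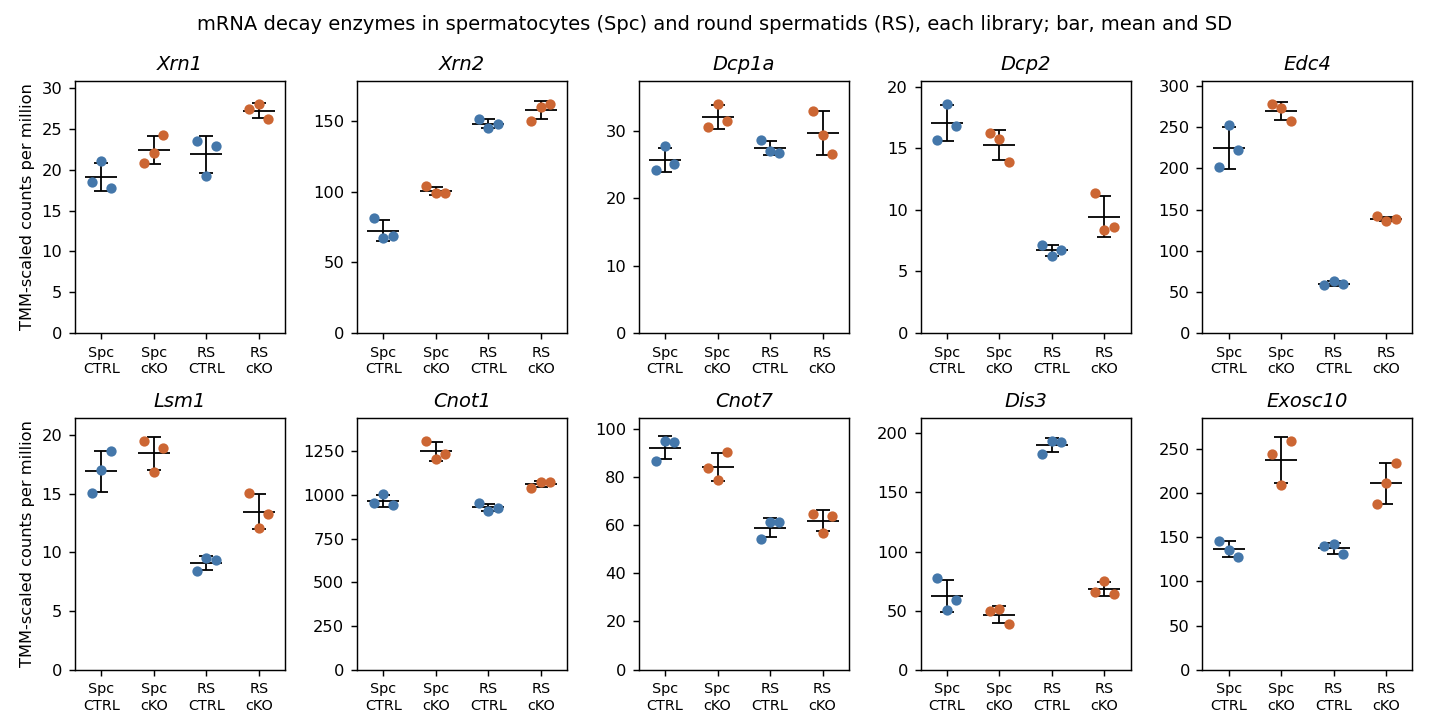
TMM-scaled CPM (y axis, from 0) of each of the 10 genes in the 3 libraries of Spc CTRL, Spc cKO, RS CTRL and RS cKO (x axis), with all 12 libraries scaled together. Points are libraries and bars give mean and SD. Dis3 is high in RS CTRL only, and Edc4, Dcp2 and Lsm1 are lower in RS than in Spc, most in CTRL.

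The first comparison asked how the decay machinery changes from meiotic Spc to haploid RS in CTRL mice. Of the 10 genes, 2 rose, Dis3 and Xrn2, and 5 fell, Edc4, Dcp2, Lsm1, Cnot7 and Cnot1, where 36.2% of all genes tested rose and 39.7% fell. The groups did not overlap in 7 of the 10 genes, against 80.6% of all genes. The median log2 fold change was -0.16 for the 10 genes and -0.08 for all genes.

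Edc4, the decapping scaffold, had 194, 239 and 209 CPM in the 3 Spc libraries and 49.8, 55.9 and 50.7 in RS. Every RS library was far below every Spc library, and the log2 fold change of -2.04 (adjusted p = 3.1e-05, SE 0.10) was the only one of the 10 to pass the log2 size of 1.5 in the call of the study, as 17.0% of all genes did downwards. Dcp2 went from 15.1, 17.6 and 15.9 to 6.18, 5.54 and 5.77 CPM, a log2 fold change of -1.47 (adjusted p = 1.0e-04, SE 0.12). Lsm1 went from 14.5, 16.1 and 17.6 to 7.26, 8.38 and 8.06 CPM (log2 fold change -1.02, adjusted p = 3.4e-04, SE 0.13). In both genes the Spc and RS libraries were well apart. Dcp1a was the decapping gene that did not pass, with 23.4 to 26.3 CPM in Spc and 23.0 to 24.7 in RS (log2 fold change -0.04, 95% interval -0.22 to 0.14).

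Dis3 showed the opposite course, with 74.4, 47.9 and 55.5 CPM in Spc and 158, 171 and 165 in RS. All RS libraries were above all Spc libraries, with a log2 fold change of 1.47 (adjusted p = 2.3e-04, SE 0.16). The other exosome nuclease, Exosc10, had 121 to 141 CPM in Spc and 113 to 126 in RS, and it did not pass (log2 fold change -0.12, adjusted p = 0.23). Xrn2 rose from 78.1, 63.8 and 64.9 CPM to 130.3, 127.5 and 127.2 (log2 fold change 0.90, adjusted p = 2.2e-04, SE 0.10). Xrn1 had 16.8 to 19.9 CPM in Spc and 17.0 to 20.2 in RS, with overlapping groups and a log2 fold change of 0.06 (adjusted p = 0.64), which was -0.40 and passed when only library size was used (adjusted p = 0.022) or transcript counts were summed (adjusted p = 0.015). The deadenylase Cnot7 fell from between 83.3 and 89.8 CPM to between 46.9 and 54.0 (log2 fold change -0.77, adjusted p = 2.3e-04, SE 0.08). Its scaffold Cnot1 changed little, from 887 to 949 CPM down to 797 to 819.96 CPM (log2 fold change -0.19, adjusted p = 0.034, SE 0.07), and its call was lost in DESeq2, with the replicate number as a block and without Spc CTRL replicate 2 or any 1 of the 3 RS CTRL libraries (adjusted p up to 0.11). With library size alone 2 genes rose and 8 fell, where 4318 of all 17046 genes rose and 9082 fell.

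In cKO mice the same comparison of RS with Spc again called 2 genes higher, Dis3 and Xrn2, and 5 lower, Edc4, Dcp2, Lsm1, Cnot7 and Cnot1, where 18.9% of all genes tested rose and 26.4% fell. The groups did not overlap in 8 of the 10 genes, against 58.7% of all genes, and the median was -0.23 for the 10 genes and 0.01 for all genes. Edc4 fell from 302, 304 and 293 to 153, 151 and 150.1 CPM (log2 fold change -0.99, adjusted p = 1.2e-04, SE 0.06). Dcp2 fell from 17.6, 17.5 and 15.8 to 12.2, 9.32 and 9.30 CPM (log2 fold change -0.72, adjusted p = 0.0091, SE 0.16), and the groups stayed apart. Dis3 rose from 53.6, 57.4 and 43.7 to 71.1, 83.1 and 69.4 CPM (log2 fold change 0.53, adjusted p = 0.012, SE 0.13). In these 3 genes RS and Spc libraries did not overlap. The remaining calls were Xrn2 at 0.62 (adjusted p = 5.3e-04, SE 0.07), Cnot7 at -0.47 (adjusted p = 0.0053, SE 0.09), Lsm1 at -0.48 (adjusted p = 0.023, SE 0.13) and Cnot1 at -0.26 (adjusted p = 0.0080, SE 0.06). Xrn1 (0.26), Dcp1a (-0.14) and Exosc10 (-0.19) did not pass. The call of Lsm1 was lost with library size alone (adjusted p = 0.10025) and without Spc cKO replicate 1 or 3 or RS cKO replicate 2 or 3 (adjusted p up to 0.099). That of Cnot1 was lost in DESeq2 (adjusted p = 0.058) and without Spc cKO replicate 1 (adjusted p = 0.059) or RS cKO replicate 1 (-0.16, adjusted p = 0.052). Without Spc cKO replicate 1 the call of Dcp2 was lost too (adjusted p = 0.051), which left 2 genes lower.

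Whether the step from Spc to RS differed between the genotypes was tested directly as the interaction of genotype and cell type over the 12 libraries. It was called for 4 of the 10 genes, 2 with a more positive cKO effect in RS than in Spc, Edc4 and Dcp2, and 2 with a more negative one, Dis3 and Xrn2, where 19.0% of all genes were called in the positive and 24.1% in the negative direction (43.1% in all). The interaction was 0.94 on the log2 scale for Edc4 (adjusted p = 3.5e-04, SE 0.12), 0.65 for Dcp2 (adjusted p = 0.025, SE 0.20), -1.05 for Dis3 (adjusted p = 0.0030, SE 0.21) and -0.38 for Xrn2 (adjusted p = 0.017, SE 0.11). In each of these 4 genes the difference between RS and Spc was smaller in size in cKO than in CTRL. Fewer of all genes were called from Spc to RS in cKO (18.9% rose and 26.4% fell) than in CTRL (36.2% and 39.7%). The share of all genes with a smaller step in cKO was not counted. Lsm1 had a smaller step in cKO too, and its interaction of 0.44 (SE 0.18) did not pass (adjusted p = 0.065), though it did in DESeq2 (adjusted p = 0.013) and without Spc CTRL replicate 1 or RS cKO replicate 2. The call of Dcp2 was lost without Spc CTRL replicate 2, RS CTRL replicate 2 or RS cKO replicate 1 (adjusted p up to 0.062). With library size alone, under which the median gene had 0.58, 9 of the 10 genes were called positive and none negative, where 8087 of all 18171 genes were positive and 545 negative, Xrn2 turned to 0.32 and Dis3 was -0.35 without a call (adjusted p = 0.15). The interaction of Edc4 was 0.85 to 1.02 as each library was left out.

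**Figure D2:**
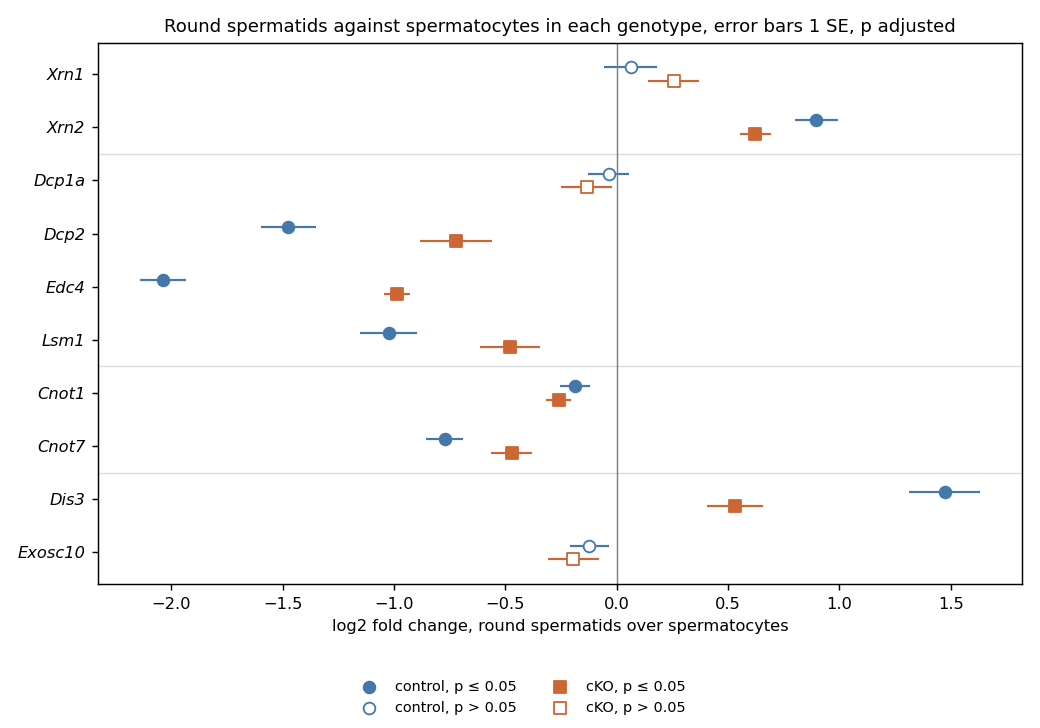
Log2 fold change of RS over Spc (x axis) for each of the 10 genes (y axis) in CTRL (circles) and cKO (squares), from edgeR with bars of 1 SE, filled where the adjusted p was at most 0.05. Edc4 is at -2.04 in CTRL and -0.99 in cKO, and Dis3 at 1.47 and 0.53.

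The cKO effect itself was measured next, first in Spc. Of the 10 genes, 3 were higher in cKO Spc, Exosc10, Xrn2 and Cnot1, where 14.0% of all genes tested rose, and 0 were lower, where 14.1% fell. At an unadjusted p under 0.05, 3 were higher and 2 lower (edgeR), and the share of all genes under that rule was not counted. DESeq2 also called 0 lower, where it called 3164 of all 17321 genes lower. The groups did not overlap in 7 of the 10 genes, against 47.7% of all genes, and the median was 0.14 for the 10 genes and -0.01 for all genes.

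Exosc10 had 167, 152 and 143 CPM in CTRL and 249, 222 and 274 in cKO Spc. Each cKO library was above each CTRL library, with a log2 fold change of 0.69 (adjusted p = 0.0056, SE 0.10), or 1.61-fold. Xrn2 had 92.8, 75.4 and 76.9 CPM in CTRL and 106, 105 and 104 in cKO (log2 fold change 0.36, adjusted p = 0.034, SE 0.10). Its call was lost with the replicate number as a block (adjusted p = 0.053) and without CTRL replicate 2 or 3 or any 1 of the cKO libraries (adjusted p up to 0.11), with a log2 fold change of 0.31 to 0.48. Cnot1 had 1089, 1121 and 1052 CPM in CTRL and 1336, 1279 and 1303 in cKO, and the log2 fold change was 0.26 (adjusted p = 0.016, SE 0.06). That call was lost without CTRL replicate 3 (adjusted p = 0.067), which left 1 gene higher. Dis3 had 88.5, 56.6 and 65.8 CPM in CTRL and 50.3, 54.9 and 40.5 in cKO. The groups did not overlap, and the log2 fold change of -0.53 (SE 0.19) did not pass (adjusted p = 0.072), though it did without CTRL replicate 2 (-0.67, adjusted p = 0.045), which left 1 gene lower. Without CTRL replicate 1, the highest library, it was -0.32 (adjusted p = 0.16), and without any 1 of the other libraries it lay between these values, with an adjusted p of up to 0.20 and no call. Cnot7 (log2 fold change -0.24, adjusted p = 0.073), Dcp2 (-0.27, adjusted p = 0.15) and Dcp1a (0.21, adjusted p = 0.18) had groups that did not overlap but were not called. Edc4 (0.15), Xrn1 (0.12) and Lsm1 (0.02) had overlapping groups, and the 95% interval for Lsm1 ran from -0.23 to 0.26.

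In RS, 6 of the 10 genes rose in cKO, Edc4, Exosc10, Lsm1, Dcp2, Xrn1 and Cnot1, where 38.4% of all genes tested rose, and 1, Dis3, fell, where 34.3% fell. None of these changes had the size of 1.5 on the log2 scale, which 26.4% of all genes had in either direction. The groups did not overlap in 8 of the 10 genes, against 76.9% of all genes, and the median was 0.27 for the 10 genes and 0.11 for all genes. With library size alone 9 rose and 1 fell, where 10232 of all 17492 genes rose and 3238 fell, and Edc4 was then at 1.84 and Dis3 at -0.85.

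Dis3 had 168, 178 and 177 CPM in the CTRL libraries of RS and 61.1, 69.0 and 59.3 in cKO. Every cKO library was far below every CTRL library, and the log2 fold change of -1.46 (adjusted p = 1.7e-06, SE 0.08) corresponds to 2.76-fold less. Leaving out 1 library at a time gave -1.499 to -1.37. The CTRL libraries of RS are also those compared with Spc, so that for each gene the step from Spc to RS in CTRL and the cKO effect in RS share a value and are not separate evidence. Exosc10 had 128, 131 and 120.2 CPM in CTRL and 174, 196 and 217 in cKO, so that it moved the other way, with a log2 fold change of 0.63 (adjusted p = 3.6e-04, SE 0.09).

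Edc4 had 53.0, 58.3 and 54.2 CPM in CTRL and 131, 125 and 128 in cKO RS. The 2 groups were far apart, with a log2 fold change of 1.22 (adjusted p = 2.3e-06, SE 0.07), or 2.33-fold, and of 1.18 to 1.28 as each library was left out. Lsm1 had 7.71, 8.74 and 8.61 CPM in CTRL and 13.9, 11.1 and 12.3 in cKO (log2 fold change 0.58, adjusted p = 0.0058, SE 0.14). Dcp2 had 6.56, 5.78 and 6.16 CPM in CTRL and 10.5, 7.74 and 7.94 in cKO (log2 fold change 0.50, adjusted p = 0.027, SE 0.17), the highest value being that of cKO replicate 1. Its groups did not overlap, but the call was lost without any 1 of the CTRL libraries (adjusted p up to 0.088). Dcp1a had 24.6 to 26.2 CPM in CTRL and 24.7 to 30.6 in cKO, with overlapping groups and a log2 fold change of 0.12 (95% interval -0.09 to 0.33).

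Xrn1 had 21.5, 17.7 and 21.0 CPM in CTRL and 25.4, 25.9 and 24.3 in cKO RS (log2 fold change 0.33, adjusted p = 0.025, SE 0.11). All cKO libraries were above all CTRL libraries, and the call was lost in DESeq2 (adjusted p = 0.062), with the block (adjusted p = 0.0502) and without CTRL replicate 2 (adjusted p = 0.086). Cnot1 had 871, 834 and 851 CPM in CTRL and 963, 991 and 995 in cKO (log2 fold change 0.21, adjusted p = 0.0079, SE 0.05), with a DESeq2 adjusted p of 0.10. Xrn2 was at 133 to 139 CPM in CTRL and 139 to 150.1 in cKO, with groups just apart, and did not pass (log2 fold change 0.10, adjusted p = 0.17), though it did without cKO replicate 1 (0.20, adjusted p = 0.027) and when transcript counts were summed (0.18, adjusted p = 0.032). Cnot7, with 49.8 to 56.3 CPM in CTRL and 52.4 to 59.9 in cKO, had overlapping groups (log2 fold change 0.08, 95% interval -0.09 to 0.26).

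In CBs, 1 of the 10 genes was called, Dis3, which fell, where 18.4% of all genes tested fell. No gene was called higher, where 18.1% rose, and none in DESeq2, which called 2372 of all 14051 genes higher. None was higher at an unadjusted p under 0.05 in edgeR either, and the share of all genes under that rule was not counted. The groups did not overlap in 2 of the 10 genes, Dis3 and Dcp2, against 39.7% of all genes, and the median was -0.13 for the 10 genes and 0.07 for all genes. The numbers in the labels could not be tied to the CB columns, so the libraries are given letters.

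Dis3 had 49.0, 50.1, 47.6 and 48.9 CPM in CTRL CBs a to d and 27.5, 19.8 and 18.8 in cKO CBs a to c. The CTRL libraries lay close together and the cKO libraries well below them, with a log2 fold change of -1.15 (adjusted p = 5.7e-04, SE 0.19), or 2.22-fold less. Leaving out 1 library at a time gave -1.40 to -1.02. Dcp2 had 9.77, 10.2, 11.4 and 11.2 CPM in CTRL and 7.93, 6.91 and 9.46 in cKO, and its log2 fold change of -0.36 (SE 0.23) did not pass (adjusted p = 0.23). Edc4 had 133, 118, 114 and 152 CPM in CTRL and 146, 145 and 196 in cKO, with overlapping groups (log2 fold change 0.33, adjusted p = 0.16, SE 0.18). Without cKO library c, the highest of Edc4, it was 0.18 (adjusted p = 0.47), and with library size alone it was 0.17 (adjusted p = 0.69). Exosc10 had 53.7 to 85.0 CPM in CTRL and 63.5 to 95.5 in cKO (log2 fold change 0.21, adjusted p = 0.44), and from 0.015 without cKO library c to 0.37 without CTRL library d. The other 6 genes had log2 fold changes between -0.42 for Cnot7 and 0.21 for Dcp1a with adjusted p from 0.18 to 0.98. Cnot7 was -0.59 without cKO library a and -0.22 without cKO library c, and it turned to 0.18 when transcript counts were summed. With 15 to 154 counts of Dcp2 and 19 to 103 of Lsm1 per library, small differences of these genes were not detectable in CBs.

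**Figure D3:**
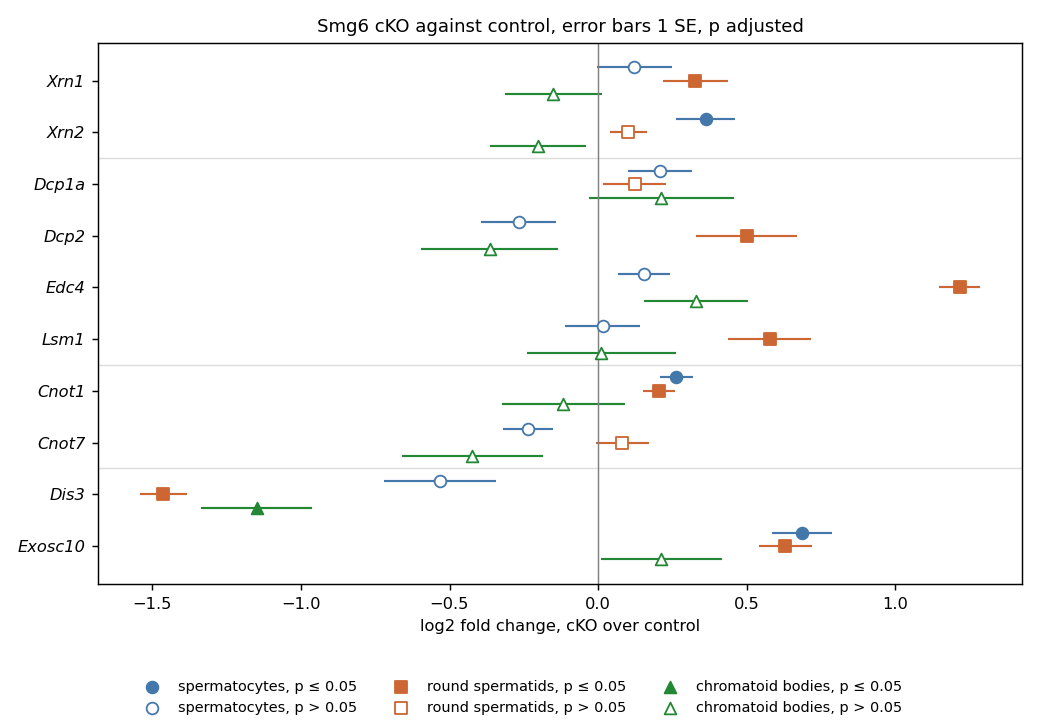
Log2 fold change of cKO over CTRL (x axis) for the 10 genes (y axis) in Spc (circles), RS (squares) and CBs (triangles), from edgeR with bars of 1 SE, filled where the adjusted p was at most 0.05. Dis3 lies to the left of 0 in each fraction, at -0.53, -1.46 and -1.15, and Edc4 in RS is the rightmost point at 1.22.

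**Figure D4:**
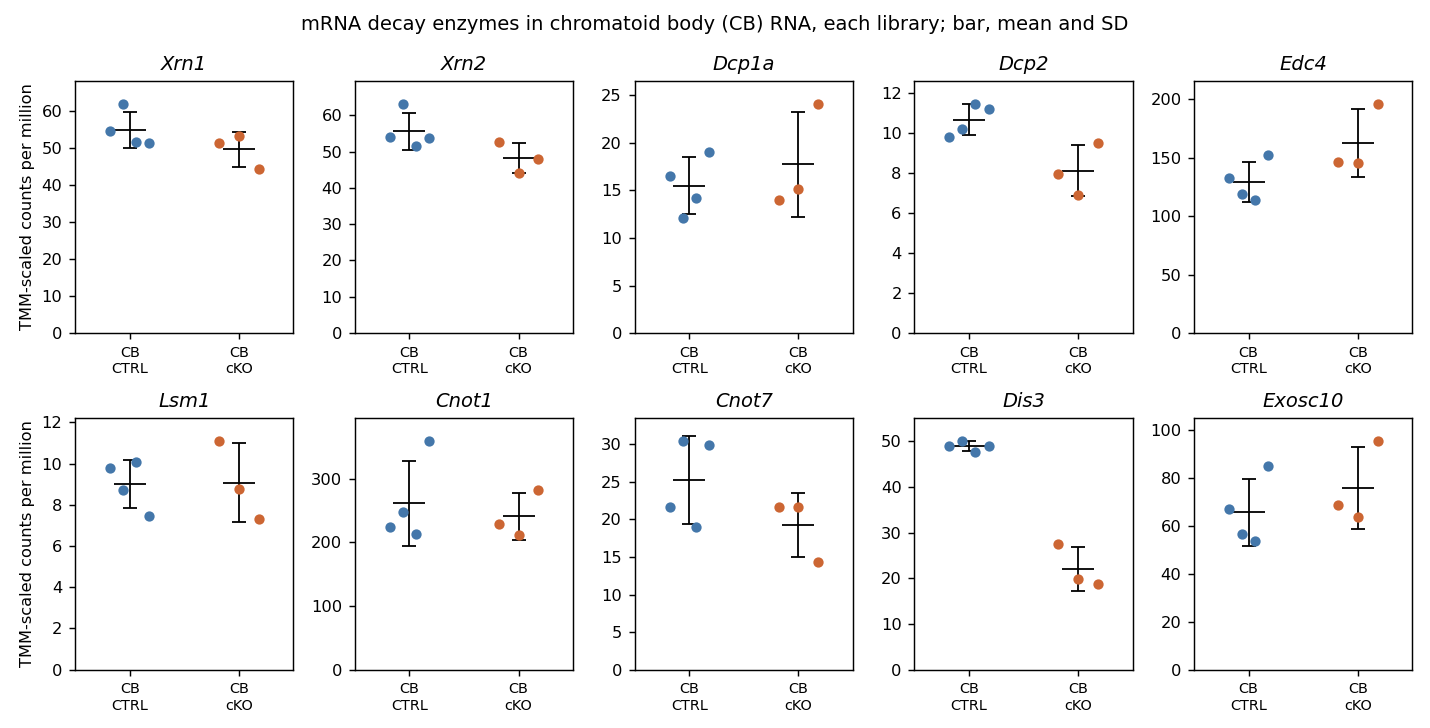
TMM-scaled CPM (y axis, from 0) of the 10 genes in the 4 CTRL and 3 cKO CB libraries (x axis). Points are libraries and bars give mean and SD. Dis3 is at 47.6 to 50.1 in CTRL and 18.8 to 27.5 in cKO, while in 8 of the other 9 genes the groups overlap.

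Transcript counts were then used to ask whether annotated isoforms of a gene moved apart. The table held only 1 transcript each of Dcp1a, Lsm1 and Dis3 and 2 of Cnot1, and 43 transcripts of the 10 genes were tested in Spc, 43 in RS and 36 in CBs. In RS, 26 of 43 rose, where 38.9% of all transcripts tested rose, and 1, Dis3-201, fell, where 36.0% fell. All 7 transcripts of Edc4 rose, by log2 fold changes of 1.28 to 1.32, and all 8 of Exosc10, by 0.65 to 0.79. The transcripts of each of these genes thus moved by nearly the same amount, but a read that fits several transcripts was shared among them, so that shared exons bring their values together. Dis3-201, the coding transcript, had a log2 fold change of -1.38. Of 6 Xrn1 transcripts tested 5 rose (0.29 to 0.64 over the 6), and of 11 Cnot7 transcripts none was called (-0.01 to 0.26). In Spc 13 transcripts rose, where 16.1% of all rose, and 0 fell, where 12.5% fell (6 at an unadjusted p under 0.05 in edgeR, a share not counted over all transcripts). The 13 were all 8 of Exosc10 (0.64 to 0.78), 3 of 4 of Xrn2 and both of Cnot1. In CBs 2 rose, Edc4-201 and Edc4-202 at 0.54, which share nearly all of their counts, where 17.8% of all rose, and 1, Dis3-201 at -1.04, fell, where 18.1% fell. Of 5 Cnot7 transcripts tested in CBs, Cnot7-203 was at -0.70 (adjusted p = 0.071) and Cnot7-211 at 0.63 (adjusted p = 0.080), both coding and with opposite signs, and neither was called. Both calls of Edc4 transcripts were lost without CTRL replicate a, b or c or cKO replicate b, and 1 of them without cKO replicate c.

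The share of a gene's transcript counts on transcripts without a protein-coding annotation (retained introns, NMD transcripts and others) could be formed for Xrn1, Xrn2, Edc4, Cnot7 and Exosc10, in 3 fractions each. For Exosc10 it was 59.8% ± 0.3 in CTRL RS and 60.0% ± 0.2 in cKO RS (SD, n = 3 each), and for Edc4 34.7% ± 0.2 and 34.9% ± 0.1. These shares say little about which isoform was used, since a read was divided evenly among the transcripts it fits. The coding Exosc10-201 and the non-coding Exosc10-206 had the same value in each RS library (24.8, 25.8 and 22.9 CPM in CTRL), as had Edc4-201 and Edc4-202. Xrn1 had 33.9% ± 0.6 in CTRL RS and 32.3% ± 1.0 in cKO RS, without overlap (exact permutation test over libraries, two-sided, p = 0.10, the smallest that 3 against 3 libraries can give). The largest difference was that of Cnot7 in CBs, 39.5% ± 1.2 in CTRL (n = 4) and 44.0% ± 1.8 in cKO (n = 3), again without overlap (exact permutation test, p = 0.057, the smallest that 3 against 4 can give), on 89 or more counts per library. The gene table held as few as 47 counts of Cnot7 in a CB library, and the 2 tables gave opposite signs for the gene in CBs, so that this share is uncertain. None of the 15 tests passed (adjusted p of 0.50 or more, Benjamini-Hochberg over the 15).

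Other genes of the same pathways were taken from 3 lists and set beside the 10. Of 22 other genes of decapping and 5′ decay, 12 rose and 5 fell in cKO RS, with a median of 0.43 beside 0.11 for all genes, of which 38.4% rose and 34.3% fell. The highest were Patl1 (log2 fold change 1.86, adjusted p = 3.5e-05), a bridge between decapping factors, and its paralog Patl2 (1.54, adjusted p = 0.030), a gene near the count filter with 0.356, 0.326 and 0.151 CPM in CTRL and 1.21, 0.871 and 0.365 in cKO, whose groups all but touched. The lowest were Cdkn2aip (-1.05), an XRN2-binding protein, and Dcp1b (-0.71), the paralog of Dcp1a. Of the LSM ring, Lsm3, Lsm5, Lsm6 and Lsm7 rose, and Lsm2 and Lsm4 fell. Of 23 other deadenylation genes 12 rose and 6 fell in RS (median 0.27), led by Btg2 at 3.06 and Pan2 at 2.17, an adaptor of CCR4-NOT and the nuclease of the PAN complex, with Tob1 (-1.01) and Btg1 (-0.94) lowest. Of 27 other exosome genes 6 rose and 10 fell (median -0.04), with the core subunits Exosc8 (1.45) and Exosc7 (1.38) highest and the poly(A) polymerase Papd5 (-1.31) and Zcchc8 (-1.26), of the nuclear exosome targeting complex, lowest. Exosc8 and Exosc7 were low in level, with means of 2.54 and 1.14 CPM in CTRL and 6.96 and 2.97 in cKO. Of the other core subunits Exosc6 rose, and Exosc3, Exosc4 and Exosc5 fell. Exosc5 had 262 to 271 CPM in CTRL and 148 to 164 in cKO. Dis3l was not called (351 to 373 CPM in CTRL and 364 to 406 in cKO). In Spc these lists had 0, 5 and 1 genes higher and 0, 0 and 1 lower, where 14.0% of all genes rose and 14.1% fell, among them Pan2 (0.82), the 3′ exonuclease Pnldc1 (0.54), Zcchc7 (0.70) and Exosc3 (-0.43). At an unadjusted p under 0.05 they had 1, 5 and 4 higher and 1, 2 and 3 lower in Spc (edgeR). The share of all genes under that rule was not counted. DESeq2 called 4 of the 72 lower in Spc, where it called 3164 of all 17321 genes lower. In CBs, where 20, 23 and 27 of them were tested, 4, 3 and 4 rose and 1, 2 and 4 fell, where 18.1% of all genes rose and 18.4% fell, with Btg2 (2.01) and Exosc2 (1.11) highest and Btg1 (-0.95) and Papd5 (-0.92) lowest. From Spc to RS in CTRL 3, 6 and 9 rose and 14, 14 and 10 fell, with medians of -0.73, -0.44 and 0.03 beside -0.08 for all genes, of which 36.2% rose and 39.7% fell. Among them Lsm3 (-2.38) and Lsm6 (-2.28), subunits of the ring to which Lsm1 belongs, had the lowest values of their list, and the nuclear exosome cofactors Zcchc8 (1.54) and Rbm7 (1.48) the highest of theirs. Of the other subunits of that ring, Lsm4, Lsm5 and Lsm7 fell too, while Lsm2 rose (85.0 to 93.1 CPM in Spc and 115 to 123.3 in RS). In cKO 1, 6 and 7 rose and 11, 10 and 9 fell, where 18.9% of all genes rose and 26.4% fell. With library size alone 51 of the 72 rose and 7 fell in RS, a scaling under which most of all genes rose there, as given above.

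**Figure D5:**
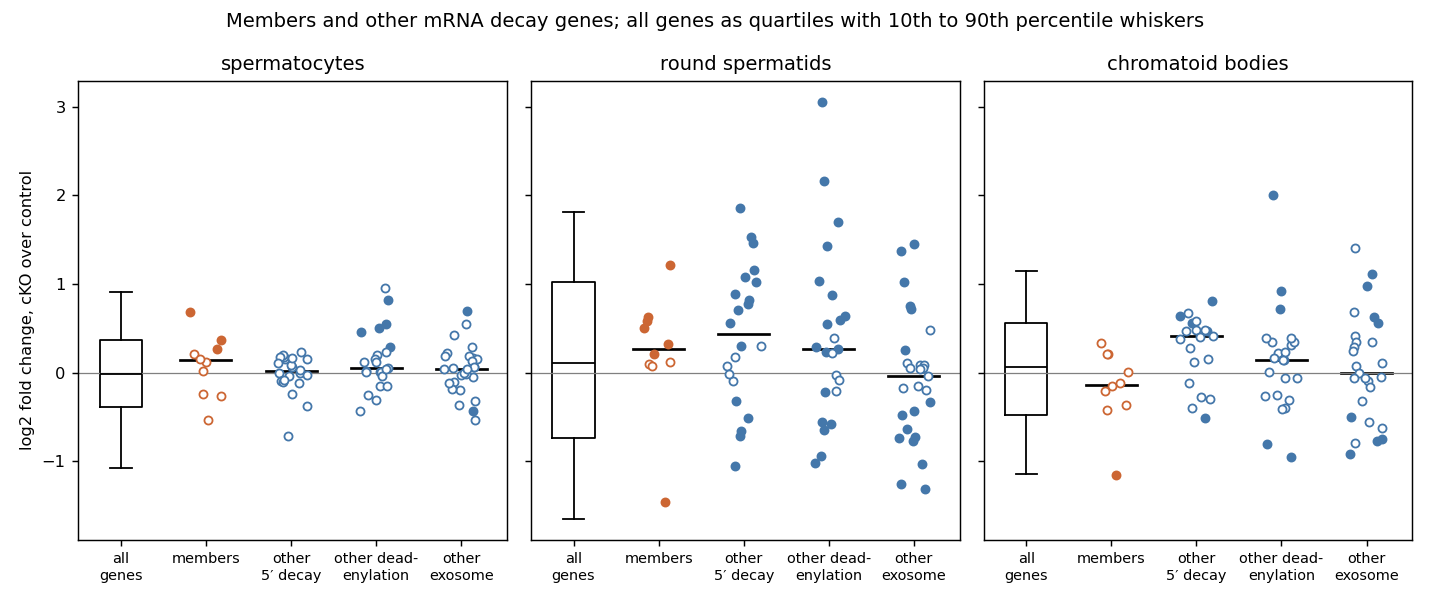
Log2 fold change of cKO over CTRL (y axis) in Spc, RS and CBs for all genes (box of quartiles, whiskers at the 10th and 90th percentiles), the 10 members and the 3 lists of other decay genes. Points are genes, filled where the adjusted p was at most 0.05, and bars are medians. Dis3 is the lowest member in each panel and Btg2 the highest list gene in RS and CBs.

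As a description of the levels over the 12 Spc and RS libraries, which fall into 4 groups, the gene most like each member was named by Pearson's r of log2 CPM among the 13068 genes with a mean count of at least 100. For Dis3 this was Ddx20 (r = 0.998), for Edc4 Ccdc77 (0.998), for Lsm1 the pseudogene Tmem181b-ps (0.99), for Xrn2 4921504A21Rik (0.99), for Dcp2 Akap11 (0.99), for Cnot1 Pbx4 (0.98), for Cnot7 Stambp (0.98), for Exosc10 Efcab5 (0.97), for Xrn1 Rftn1 (0.94) and for Dcp1a Zfr2 (0.86). The values of r, over all 12 libraries, were lowest for Dcp1a and Xrn1. These were the 2 members whose level varied least between Spc and RS of CTRL mice. In cKO mice the smallest steps were those of Dcp1a (-0.14) and Exosc10 (-0.19).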

How the data were processed

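The members and lists were chosen with earlier results of these data known. Reads were trimmed (cutadapt) and mapped to GRCm38 (STAR) by the authors, and genes were counted by strand in TEtranscripts. The deposited gene tables hold whole-number counts. The deposited transcript tables, made by the authors with featureCounts, hold expected counts in which reads matching several transcripts were shared, and these were rounded to whole numbers. Columns of the CB tables could be tied to a group but not to a labelled replicate. Tests used edgeR 4.0.16 (TMM, quasi-likelihood, Benjamini-Hochberg) in R 4.3.3 with limma 3.58.1, after a filter of 10 counts (genes) or 20 counts (transcripts) in at least 3 libraries. Each comparison was fitted on its own libraries and the interaction on 12. Depth was 36419197 to 47355837 gene counts in Spc and RS and 2705277 to 12103906 in CBs. Replicates of a group differed by more than counting noise. Standard errors are those of the fit and 95% intervals are normal ones from it. Fits were tested on simulated data. Alternatives were DESeq2 1.42.0, library size without TMM, no count filter, summed transcript counts, a replicate block, another transcript filter and each library left out. Named genes were all members in each comparison, Smg6, for each member the most similar gene, and from each list of other decay genes at most the 2 highest and 2 lowest called. Added to these were called genes of the LSM ring, called core subunits of the exosome in RS, and Dis3l. Exon lengths came from GENCODE vM21 and, as an alternative added later, from curated RefSeq transcripts of GRCm38. The 10 marker lists cover spermatogonia, spermatocytes, round and late spermatids and, of somatic cells, Sertoli, Leydig, myoid, endothelial and red blood cells and macrophages. Python 3.11 with scipy did the rest, and small RNA files were not used here.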

Additional observations from a re-analysis of the deposited data

Results flagged for a closer look

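The genotype effect differed between RS and Spc by the interaction test over 12 libraries in 4 of the 10 genes, where 43.1% of all genes were called. The difference, RS minus Spc, was 0.94 on the log2 scale for Edc4 and 0.65 for Dcp2, and it was -1.05 for Dis3 and -0.38 for Xrn2. Of the 72 other decay genes the interaction was called positive in 18 and negative in 20, where 19.0% and 24.1% of all genes were, and among those named by the rule it was 2.13 for Patl2, 1.74 for Patl1, 1.99 for Btg2, 1.22 for Pan2, 1.21 for Exosc7 and 1.00 for Exosc6. It was -1.18 for Tob1, -1.11 for Papd5, -0.94 for Cdkn2aip, -0.92 for Exosc4, -0.84 for Dcp1b and -0.81 for Btg4. Patl2, at 0.277 CPM in CTRL RS and 0.816 in cKO RS, is among the lowest in level. Single libraries that stand apart were examined by Dixon's ratio only in the CTRL CBs, the only group of 4 libraries. There the gap to the nearest library over the range stayed under Dixon's critical value for each of the 10 genes, with the largest ratio, 0.78, for Xrn2.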

How the results depend on the processing

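Of 720 values of a member in a comparison under an alternative, 653 kept direction and call, 33 lost and 15 gained a call, and 19 changed sign. Counts of members called stayed within 1.5 times of the reported ones except as follows. With library size alone 8 members were lower from Spc to RS in CTRL, and the interaction was called positive in 9 and negative in 0. Under the same scaling 51 other decay genes rose and 7 fell in RS, 4 rose in CBs (11 with TMM), where 1587 of all 14051 genes rose, and the interaction was positive in 42 and negative in 2 (18 and 20 with TMM), while 42 member transcripts rose in RS, where 33542 of all 57133 rose, and 0 in CBs, where 760 of all 30623 rose and 5431 fell. Changed signs there were Xrn2 (0.32), Dcp1a (0.50), Cnot1 (0.53) and Exosc10 (0.52) in the interaction, Xrn1 from Spc to RS in CTRL (-0.40), Dcp1a in cKO (0.0086) and Lsm1 in CBs (-0.11). Under that scaling the median of all genes moved too. DESeq2 gave 4 other decay genes lower in Spc, where it called 3164 of all 17321 genes lower. It also gave Lsm1 in CBs at -0.0059 and Dcp1a from Spc to RS in CTRL at 0.029. Without a count filter Lsm1 in CBs was -0.075, and with summed transcript counts Cnot7 in CBs was 0.18 and Xrn1 from Spc to RS in CTRL -0.40. A transcript filter of 10 counts left 1 transcript higher in CBs. The cause of these was not tested.

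With each library left out, members higher in Spc numbered 1 to 3 and lower 0 to 1, members lower in cKO from Spc to RS 2 to 5, and positive interactions 1 to 3. Of all genes, 1111 to 2220 were then higher in Spc and 753 to 2143 lower (2431 and 2448 with all libraries). From Spc to RS in cKO 3216 to 4182 were lower (4684 with all libraries), and 2618 to 3918 interactions were positive (3459 with all libraries). Member transcripts higher in Spc numbered 5 to 14 and lower 0 to 1, and those higher in CBs 0 to 2. Of all transcripts, 4525 to 8009 were then higher in Spc and 2471 to 6014 lower (9285 and 7189 with all libraries). In CBs 3110 to 4895 were higher (5436 with all libraries). The log2 fold change of Lsm1 was -0.033 to 0.089 in Spc and -0.23 to 0.18 in CBs, that of Cnot1 -0.24 to 0.079 and of Dcp1a -0.092 to 0.34 in CBs, and that of Xrn1 -0.0066 to 0.15 from Spc to RS in CTRL. The difference in the share of non-coding transcripts, in percentage points, was -0.12 to 1.67 for Xrn1 in Spc and -0.46 to 1.499 in CBs, and for Xrn2 -0.55 to 0.24 in Spc, -0.12 to 0.33 in RS and -2.09 to 0.32 in CBs.

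The replicate numbers did not pair the samples. Deviations of same-numbered libraries correlated from -0.31 to 0.60, and not every library correlated best with its own number. With the replicate block 3 calls of members were lost, those of Xrn2 in Spc (0.37), Xrn1 in RS (0.33) and Cnot1 from Spc to RS in CTRL (-0.19), and no other call of a member changed. No paired analysis was possible for CBs because their columns carry no labelled number. In CBs, depth limits Dcp2, Lsm1 and Dcp1a most, with 15, 19 and 33 counts in the lowest library.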

Other observations

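The marker lists that the report did not describe moved as follows. No gene of the 10 lists was at 0 in all libraries of a fraction. Of all genes tested, 38.4% rose and 34.3% fell in RS, 14.0% and 14.1% in Spc, and 18.1% and 18.4% in CBs. In RS, 6 of 6 tested Leydig genes, 9 of 9 Sertoli genes, 6 of 7 erythroid genes and 5 of 7 spermatogonial genes rose, while 1 of 6 peritubular myoid genes rose and 2 fell and 1 of 5 endothelial genes fell. The summed Leydig level in RS was 6.49 to 7.57 CPM in CTRL and 37.6 to 395 in cKO, that of the Sertoli list 49.3 to 67.9 and 132 to 319.8, and that of the erythroid list 22.6 to 25.7 and 104 to 420.4. The summed peritubular myoid level in RS was 297 to 345 CPM in CTRL and 57.2 to 79.5 in cKO, that of the endothelial list 18.3 to 27.5 and 11.8 to 13.2, and that of the spermatogonial list 31.7 to 41.4 and 86.9 to 142. In Spc, 9 of 10 Sertoli genes fell (387 to 1100.2 CPM in CTRL and 202 to 331 in cKO), 9 of 12 macrophage genes rose and 1 fell (45.9 to 51.1 and 61.8 to 99.1), and 2 of 7 tested Leydig genes rose (131 to 469.8 and 642 to 1364). In Spc 1 gene fell in each of the spermatocyte list of 10, the round spermatid list of 8, the peritubular myoid list of 6 and the endothelial and erythroid lists, of which 5 each were tested. The peritubular myoid sum in Spc was 77.9 to 127 CPM in CTRL and 20.1 to 52.8 in cKO, the erythroid sum 12.7 to 24.3 and 1.92 to 4.56, and the spermatogonial sum 58.6 to 76.8 and 69.1 to 128. In CBs, 7 of 8 round spermatid genes, 1 of 10 spermatocyte genes and all 9 late spermatid genes fell, 6 of 6 Leydig genes and 4 of 6 macrophage genes rose, 2 of 6 Sertoli and 3 of 6 spermatogonial genes rose, and 1 of 5 peritubular myoid and 1 of 4 endothelial genes fell. The part of these lists in the values of the 10 decay genes was not tested.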
